A study of Bos taurus with 6 samples.

Results

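Translation factors are the soluble proteins that bring an mRNA, the initiator tRNA and the ribosomal subunits together and then carry the ribosome along the message. The genes described here are those of the deposited table whose symbol starts with EIF or EEF followed by a digit, without the eIF2 kinases (EIF2AK) and the eIF4E-binding proteins (EIF4EBP), which are treated as regulators. The rule found 56 of the 36075 genes in the table, each under a single identifier, and it uses names only and no measured value. The samples were bovine blastocysts produced in vitro from slaughterhouse ovaries. In 1 group the cumulus-oocyte complexes were matured for 22 h with melatonin (MT) at 1e-07 mol/L (MT-treated), and in the other for the same time without MT (control). Both groups were then fertilised and cultured in the same media without a further difference named in the methods. The methods say that treatments were run side by side, with oocytes of a run allotted at random. Each group had 3 libraries from 3 independent production runs, and each library was made from a pool of 3 blastocysts, so that inner cell mass, trophectoderm and hypoblast were measured together. The concentration, time and pool size come from the methods, because the labels state no more than group and replicate. The methods name Smart-seq2 and the labels a TruSeq kit, so the library chemistry is uncertain.

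As background, initiation starts with eIF2, which carries the initiator tRNA to the small ribosomal subunit together with eIF1, eIF1A, eIF3 and eIF5. The eIF4 proteins bind the cap of the mRNA, unwind its leader and recruit it, eIF5B joins the large subunit, and eIF2B reloads eIF2 with GTP for the next round. During elongation eEF1A delivers aminoacyl-tRNA, the eEF1B proteins recycle eEF1A, and eEF2 moves the ribosome by a codon. The oocyte stores mRNA and ribosomes and translates them under tight control, and the embryo makes its own translation machinery once its genome has been activated, well before the blastocyst stage.

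Values are TPM, a share of the library's transcripts that allows for transcript length, so levels can be compared between genes. In what follows, with MT stands for the MT-treated libraries, and replicates 1, 2 and 3 are given in that order. TPM keeps no read counts, and the depth behind a value is unknown. A value of 0 means only that the gene is listed at 0, because genes that every cell needs were among those at 0. The number of genes above 0 was 8854 to 8953 in the control libraries and 14372 to 14408 in the MT-treated libraries. Of the trophectoderm markers KRT8 and KRT18 were among the most abundant transcripts of all libraries, whereas CDX2 was listed at 0 throughout control, with 17.2, 15.03 and 16.1 TPM with MT, and TFAP2A had 31.5, 38.9 and 37.8 TPM in control and 0.46, 0.46 and 0.55 TPM with MT. Of 8 trophectoderm markers 6 were higher and 2 lower with MT, and of 6 inner cell mass markers 3 were higher and 2 lower. Among all tested genes 61.6% were higher and 34.1% lower. CDX2, NANOG and SOX2 reached 1 TPM only in MT-treated libraries, and TFAP2A only in control libraries. The test described below takes genes at 1 TPM in 3 or more libraries, so the direction of these markers was fixed by the filter. Summed over 8 trophectoderm markers the level was 11375 to 11716 TPM in control and 10506 to 10863 TPM with MT, nearly all of it KRT8 and KRT18, over 6 inner cell mass markers 459 to 464 and 425 to 427 TPM, mostly DPPA3 and POU5F1, and over 5 hypoblast markers 0.2 to 0.44 and 61.2 to 69.5 TPM. NANOG was listed at 0 throughout control, KLF4 had 17.7, 19.2 and 17.3 TPM in control and 84.04, 83.7 and 83.6 TPM with MT, and DPPA3 had 197, 194 and 198 TPM in control and 107, 110.2 and 106 TPM with MT. The 9 oocyte markers summed to 0 TPM in control and 1.03 to 1.5 TPM with MT. Of 8 cumulus and granulosa cell markers, 7 were listed at 0 throughout control and none of these 7 was above 0.10 TPM in an MT-treated library, while FSHR was at 15.03 to 19.2 TPM throughout. In such bulk samples fewer cells of a type and less RNA per cell cannot be told apart, and the part of these marker differences in the results below was not tested.

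Translation factor transcripts made up a nearly equal share of the deposited TPM in both groups, while most single factors differed. The 56 genes summed to 9717, 9656 and 9651 TPM in control and to 9837, 9717 and 9787 TPM with MT, which was 1.03 to 1.04% and 1.06 to 1.08% of the listed TPM. Of the 56 genes, 52 reached 1 TPM in 3 or more libraries and were tested with limma on log2(TPM + 1), with Benjamini-Hochberg adjustment over all 11953 genes tested. At an adjusted p-value under 0.05, 28 were higher (53.8%) and 23 lower (44.2%) with MT, and EIF4G3 was not called. Among all tested genes 61.6% were higher and 34.1% lower, together 95.7%, so a call by itself does not set the translation factors apart. EIF1AD, EIF2D, EIF4E3, EIF5A2 and EEF2KMT were below 1 TPM throughout control and were tested only through their MT-treated values, so that they had to differ, and no p-value is given for them. Among genes that reached 1 TPM in each of the 6 libraries, 23 of 47 factors were higher and 23 lower, where 36.5% of all such genes were higher and 55.7% lower. The 3 MT-treated values lay outside the range of the control values for all 52 genes, as they did for 96.1% of all tested genes, and an exact two-sided permutation test of 3 libraries against 3 cannot give a p-value below 0.1. Large differences were fewer than in the table as a whole, as 19 of the 52 factors (36.5%) were called with at least a 2-fold difference, 11 higher and 8 lower, where 70.6% of all tested genes were. The gap was smaller among genes that reached 1 TPM throughout, where 29.8% of the factors and 43.0% of all genes differed by 2-fold or more. The median size of the log2 fold change was 0.73 for the factors and 1.98 for all tested genes. Among the genes at 1 TPM or more throughout it was 0.63 for 47 factors and 0.83 for 5988 genes. These are descriptions, as the factors share their libraries and are not independent replicates.

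The scale on which libraries are compared decides the direction of small differences. Centring each library on the median of the genes that reached 1 TPM throughout took out a log2 offset of -0.48 (MT-treated minus control), and 32 factors were then higher and 14 lower, against 70.4% and 25.4% of all tested genes. With quantile normalization 27 were higher and 23 lower, against 46.4% and 44.4%. Where the direction of a named factor depends on this choice, it is given with the factor.

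**Figure D1:**
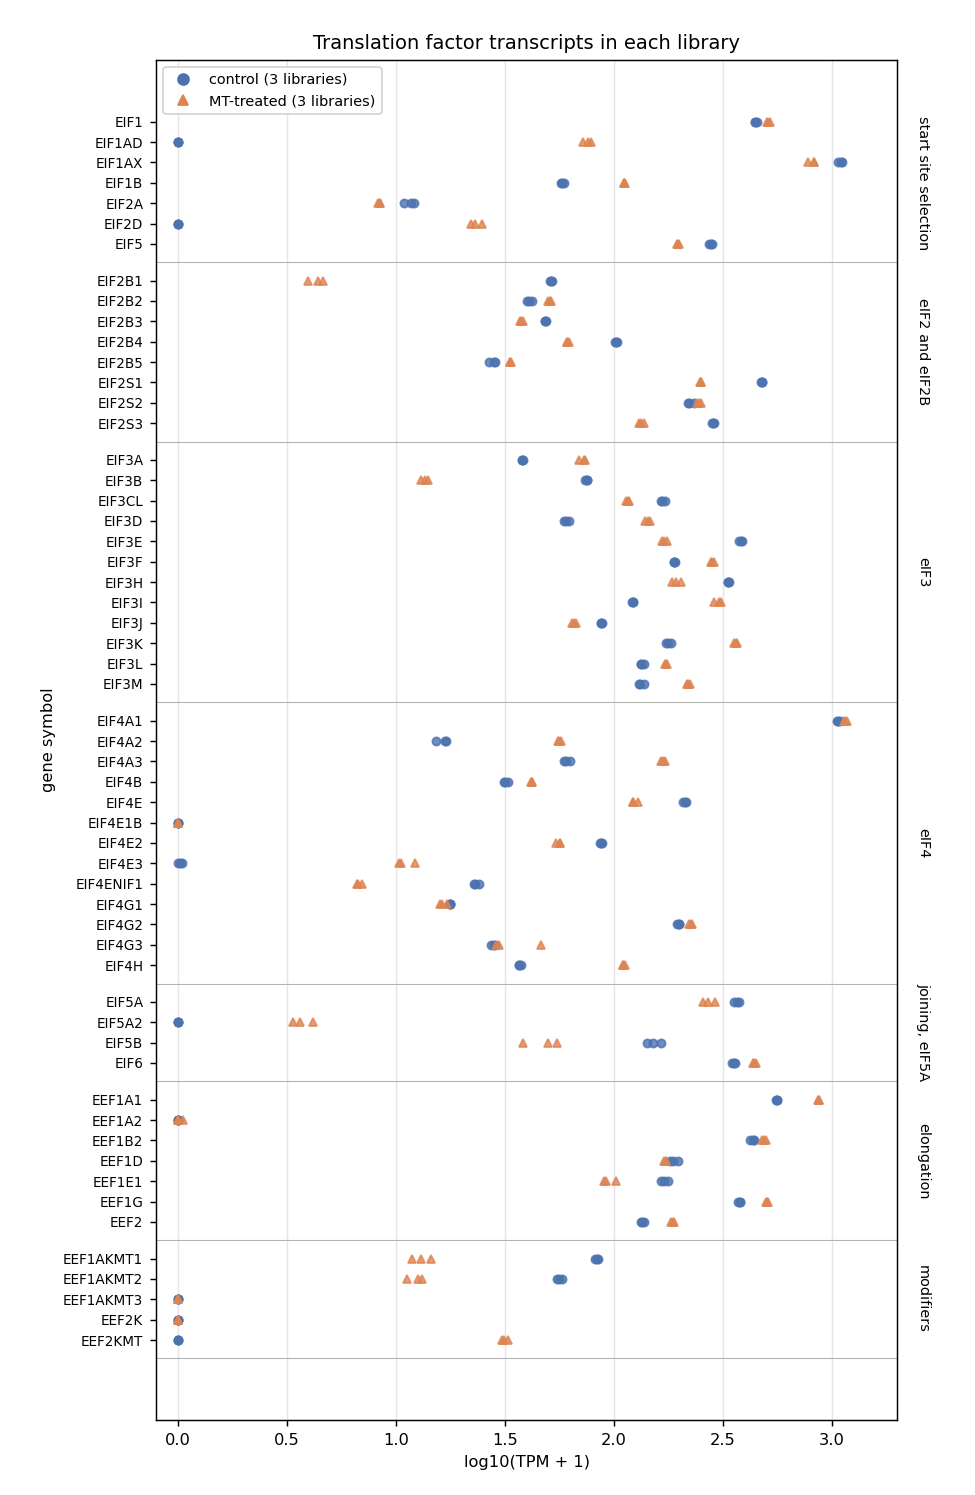
Level of each of the 56 translation factor genes in each library, as log10(TPM + 1), grouped by role; circles are the 3 control and triangles the 3 MT-treated libraries. The symbols of the 2 groups lie apart for nearly every gene, EIF4A1 and EIF1AX are the most abundant in control, and EIF1AD, EIF2D, EIF5A2 and EEF2KMT are at 0 throughout control.

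Among the factors that position the ribosome at the start codon, the 5 that were above 0 in both groups differed by less than 2-fold on the deposited scale, although EIF1B passed 2-fold after median centring and EIF1B and EIF2A did after quantile normalization, and 2 that were listed at 0 throughout control were above 0 with MT. EIF1AX encodes eIF1A, which with eIF1 keeps the ribosome open for scanning, and is X-linked. It had 1099.5, 1112 and 1069 TPM in control and 827, 825 and 780.3 TPM with MT, the highest control mean of the translation factors, although EIF4A1 was above it in control replicate 3. Every MT-treated value was below every control value (log2 fold change -0.43, adjusted p = 8.95e-06 by limma), but after median centring the difference was 0.048 and no longer called. EIF1, which rejects wrong start codons, had 452, 442 and 445 TPM in control and 518, 502 and 509 TPM with MT. Its paralogue EIF1B had 58.1, 56.9 and 56.4 TPM in control against 110.2, 110.5 and 112 TPM with MT and was higher in MT-treated blastocysts (log2 fold change 0.94, SE 0.02, adjusted p = 2.96e-08 by limma). The share of EIF1B in the summed TPM of the pair was thus 11.4 ± 0.0911% in control and 17.9 ± 0.265% in MT-treated blastocysts (mean ± SD, n = 3 each). Such a share is the same when a library is multiplied by a constant, but quantile normalization can change it.

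EIF5, the activator of the GTPase of eIF2, had 279, 274 and 280.4 TPM in control and 196, 198 and 195 TPM with MT. The values did not overlap, and the log2 fold change of -0.50 (adjusted p = 1.75e-07 by limma) shrank to -0.021 and was not called after median centring. EIF2A, an alternative carrier of initiator tRNA, was scarce in both groups, with 11.2, 10.7 and 9.87 TPM in control against 7.47, 7.46 and 7.31 TPM with MT, and its fold change of -0.46 on the log2 scale turned to 0.0187 and was not called after median centring, but grew to -2.35 (adjusted p = 7.63e-08 by limma) after quantile normalization. A pair of genes of this role were listed at 0 throughout control. EIF2D, which can place initiator tRNA without eIF2 and takes part in ribosome recycling, had 22.1, 21.2 and 23.96 TPM with MT. EIF1AD, named for a domain like that of eIF1A, had 77.4, 71.4 and 75.3 TPM there. No fold change is given in the text against control values of 0 throughout, although the figure of fold changes plots such genes with open symbols. Of all tested genes 33.8% were at 0 throughout control and above 0 in every MT-treated library, against 4 of the 52 tested translation factors. No tested factor was listed at 0 in all MT-treated libraries, as 3.01% of all tested genes were.

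The trimeric eIF2 and its exchange factor eIF2B showed unequal changes of their subunits. Of 8 genes, 3 were higher and 5 lower with MT, 4 and 4 after median centring, and 3 and 5 after quantile normalization. The shares of all tested genes were 61.6% and 34.1%, 70.4% and 25.4% after centring, and 46.4% and 44.4% after quantile normalization. EIF2S1, the alpha subunit whose phosphorylation slows initiation, had 478, 478 and 471 TPM in control and 251, 251 and 248 TPM with MT, a log2 fold change of -0.92 (SE 0.01, adjusted p = 4.58e-09 by limma). EIF2S3, the gamma subunit that binds GTP and tRNA, had 286, 288 and 283 TPM in control against 133, 129.9 and 137 TPM with MT, a log2 fold change of -1.096 (SE 0.02, adjusted p = 2.41e-08 by limma). EIF2S2, the beta subunit, went the other way, with 218, 231 and 220.5 TPM in control and 245, 252 and 239.97 TPM with MT. The ratio of EIF2S1 to EIF2S2 within a library was 2.13 ± 0.0632 in control and 1.02 ± 0.0192 with MT (mean ± SD, n = 3 each), and that of EIF2S3 to EIF2S2 was 1.28 ± 0.0333 and 0.542 ± 0.0262. Thus the alpha transcript exceeded the beta transcript in control and was close to it with MT.

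EIF2B1, the regulatory alpha subunit of eIF2B, through which the factor senses phosphorylated eIF2, had the largest fall of all translation factors. It had 51.1, 50.5 and 50.02 TPM in control and 3.41, 2.94 and 3.65 TPM with MT, which was 15.2-fold lower in the mean (log2 fold change -3.58 on log2(TPM + 1), SE 0.06, adjusted p = 1.39e-08 by limma). The other 4 subunits moved far less. EIF2B4, the delta subunit, had 101, 102 and 101 TPM in control against 61.1, 59.9 and 60.05 TPM with MT. The catalytic epsilon subunit EIF2B5 had 25.7, 27.6 and 27.4 TPM in control against 32.4, 32.4 and 32.9 TPM with MT, and EIF2B2, the beta subunit, 41.0, 39.2 and 40.01 TPM in control against 50.1, 50.8 and 49.1 TPM with MT. EIF2B4 was lower and EIF2B5 and EIF2B2 were higher by limma under each scaling. EIF2B3, the gamma subunit, had a log2 fold change of -0.37 but was higher by 0.11 after median centring. Relative to the mean of the other 4 subunits in the same library, EIF2B1 was at 0.936 ± 0.0115 in control and 0.0743 ± 0.00816 in MT-treated blastocysts (mean ± SD, n = 3 each). Without EIF2B1 the subunits of eIF2B were closer to each other in MT-treated blastocysts, where the highest was 1.85 ± 0.0319 times the lowest, than in control, where it was 3.77 ± 0.121 times. These ratios were chosen after the values had been seen.

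eIF3 is the largest initiation factor, a scaffold on the small ribosomal subunit that holds the other factors. The table named 12 of its subunits, and EIF3CL stands here for subunit c, since RefSeq lists EIF3C among its synonyms. EIF3G was not analysed here. Of the 12 genes 7 were higher and 5 lower with MT, with 7 and 3 after median centring and 7 and 5 after quantile normalization. The shares of all tested genes were 61.6% and 34.1%, 70.4% and 25.4% after centring, and 46.4% and 44.4% after quantile normalization. The fall of EIF3B, a core subunit that binds eIF3i and eIF3g, was the largest, from 74.2, 73.2 and 74.6 TPM in control to 12.7, 13.1 and 12.1 TPM with MT (5.86-fold lower in the mean, log2 fold change -2.46, SE 0.03, adjusted p = 4.96e-09 by limma). Its partner EIF3I had 122, 121 and 121 TPM in control and 309.6, 288 and 303 TPM with MT, the largest rise of the complex on the deposited scale (log2 fold change 1.298, SE 0.03, adjusted p = 3.49e-08 by limma). EIF3D rose slightly more than EIF3I after quantile normalization. EIF3B and EIF3I therefore moved in opposite directions, and did so under both other scalings.

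On the deposited scale the other rises of more than 2-fold in eIF3 were in EIF3D and EIF3K. EIF3D, a subunit that can bind the cap of some mRNAs, rose from 61.1, 59.6 and 58.04 to 143, 138 and 146 TPM. EIF3K had 176, 172 and 182 TPM in control against 365, 356 and 367 TPM with MT. EIF3A, EIF3F and EIF3M also passed 2-fold after median centring, and EIF3A did after quantile normalization. EIF3E and EIF3H, a pair of neighbouring subunits of the outer part of the complex, were the most abundant subunits in control and both fell. EIF3E had 385, 384 and 375 TPM in control and 175, 169.7 and 165 TPM with MT (log2 fold change -1.16, adjusted p = 3.71e-08 by limma). EIF3H had 332, 338 and 333 TPM in control against 193, 202 and 184 TPM with MT (log2 fold change -0.79, adjusted p = 1.15e-06 by limma). EIF3A, the large core subunit, was the scarcest in control with 36.9, 36.9 and 37.5 TPM and had 72.4, 72.8 and 68.6 TPM with MT. EIF3F, EIF3M and EIF3L were higher, with log2 fold changes of 0.58, 0.72 and 0.37. EIF3CL and the loosely bound EIF3J were lower, with -0.53 and -0.42, but EIF3CL was at -0.052 and EIF3J at 0.0611 after median centring, and neither was then called.

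The order of the eIF3 subunits by level thus differed between the groups. EIF3E and EIF3H led in control, and EIF3K and EIF3I in MT-treated blastocysts. The median subunit had 133 ± 1.16 TPM in control and 172 ± 3.19 TPM in MT-treated blastocysts (mean ± SD, n = 3 each). The most abundant subunit was 10.3 ± 0.261 times the scarcest in control and 28.8 ± 1.61 times in MT-treated blastocysts, where EIF3B was the scarcest. Without EIF3B that ratio was 10.3 ± 0.261 in control and 5.59 ± 0.2099 with MT. The coefficient of variation over all 12 subunits was 66.6 ± 0.6703% in control and 59.2 ± 1.01% with MT, so that only the ratio of the extremes was wider with MT. These measures of spread, and leaving out EIF3B, were chosen after the values had been seen.

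**Figure D2:**
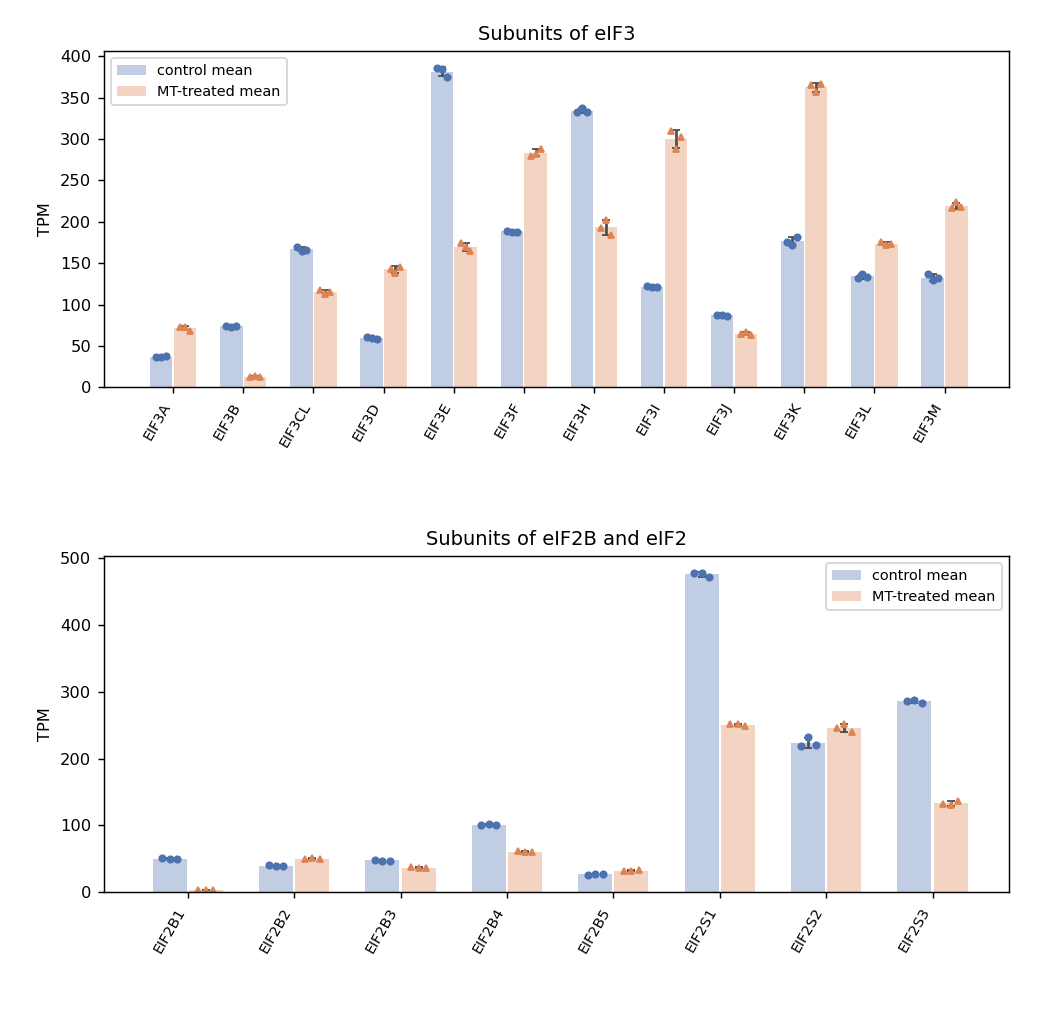
TPM of the eIF3 subunits (top) and of the eIF2B and eIF2 subunits (bottom); bars are the means of 3 libraries, error bars the SD and symbols the single libraries. EIF3B and EIF2B1 are close to the axis in MT-treated blastocysts, at a mean of 12.6 and 3.33 TPM, while EIF3D, EIF3I and EIF3K are more than 2-fold above control.

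In the cap-binding and helicase group the helicases and their cofactors were higher with MT, and the cap-binding EIF4E and EIF4E2 were lower. Of 13 genes 12 were tested, 7 were higher and 4 lower, 9 and 3 after median centring, and 6 and 4 after quantile normalization. The shares of all tested genes were 61.6% and 34.1%, 70.4% and 25.4% after centring, and 46.4% and 44.4% after quantile normalization. EIF4E3 was tested only through its MT-treated values and had to be among the higher genes on the deposited scale. EIF4A1, the main RNA helicase of initiation, was the most abundant translation factor in MT-treated blastocysts, with 1088, 1052 and 1074 TPM in control and 1175, 1143 and 1157 TPM with MT, a small rise that did not overlap with control (log2 fold change 0.11, adjusted p = 7.58e-04 by limma). EIF4A2, its close paralogue, had 16.02, 15.9 and 14.4 TPM in control and 56.5, 55.3 and 54.6 TPM with MT (log2 fold change 1.78, SE 0.05, adjusted p = 7.98e-08 by limma). EIF4A2 thus rose from 1.42 ± 0.08801% to 4.57 ± 0.05701% of the pair (mean ± SD, n = 3 each). Reads from stretches that near-identical paralogues share can be assigned to either, so these levels are uncertain to that extent.

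EIF4A3, a helicase that marks exon junctions in the nucleus, had 62.4, 58.3 and 59.4 TPM in control and 167, 164 and 171 TPM with MT. EIF4H, which stimulates the helicase, had 36.7, 35.95 and 35.7 TPM in control against 109.9, 109 and 111 TPM with MT, a 3.05-fold higher mean in MT-treated blastocysts (log2 fold change 1.58, SE 0.02, adjusted p = 3.88e-09 by limma). EIF4B, the other cofactor, rose less, from 31.6, 30.9 and 30.5 to 41.4, 40.9 and 41.3 TPM. All 4 of EIF4A2, EIF4A3, EIF4B and EIF4H were higher under median centring and quantile normalization too.

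EIF4E, the protein that binds the cap, had 208, 213 and 214 TPM in control and 121, 122 and 128 TPM with MT (log2 fold change -0.77, SE 0.03, adjusted p = 3.86e-07 by limma). EIF4E2, a cap-binding protein that represses translation, had 87.8, 85.7 and 86.7 TPM in control against 55.4, 53.4 and 55.8 TPM with MT. As both were lower, the share of EIF4E2 in the pair differed little, with 29.1 ± 0.523% in control and 30.7 ± 0.573% in MT-treated blastocysts (mean ± SD, n = 3 each). EIF4ENIF1, which carries eIF4E into the nucleus and holds mRNA in a repressed state, had 23.2, 22.2 and 21.9 TPM in control and 6.01, 5.62 and 5.69 TPM with MT (log2 fold change -1.79, SE 0.04, adjusted p = 3.30e-08 by limma). The third cap-binding paralogue, EIF4E3, went the other way, with 0.05, 0.02 and 0 TPM in control and 11.2, 9.59 and 9.34 TPM with MT. After quantile normalization it was not called. EIF4E1B, the form of eIF4E that is typical of oocytes, was listed at 0 in all 6 libraries.

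The scaffold EIF4G1 was scarce beside the helicase, with 16.8, 16.7 and 16.8 TPM in control and 15.3, 14.9 and 16.3 TPM with MT. Its call as lower (log2 fold change -0.11, adjusted p = 0.0302 by limma) was lost when any control library or MT-treated replicate 1 or 2 was left out, and it was higher by 0.37 after median centring but had a log2 fold change of -0.87 (adjusted p = 1.77e-04 by limma) after quantile normalization. EIF4G3, a related scaffold, had 27.5, 26.5 and 27.1 TPM in control and 28.6, 27.7 and 45.6 TPM with MT, and a single MT-treated library stood far above the other two. It was not called (log2 fold change 0.28, SE 0.19, adjusted p = 0.193 by limma), and without MT-treated replicate 3 the log2 fold change was 0.0575. EIF4G2, a scaffold that works without eIF4E, was the most abundant of the family, with 198, 199 and 195 TPM in control against 226, 229 and 221 TPM with MT.

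**Figure D3:**
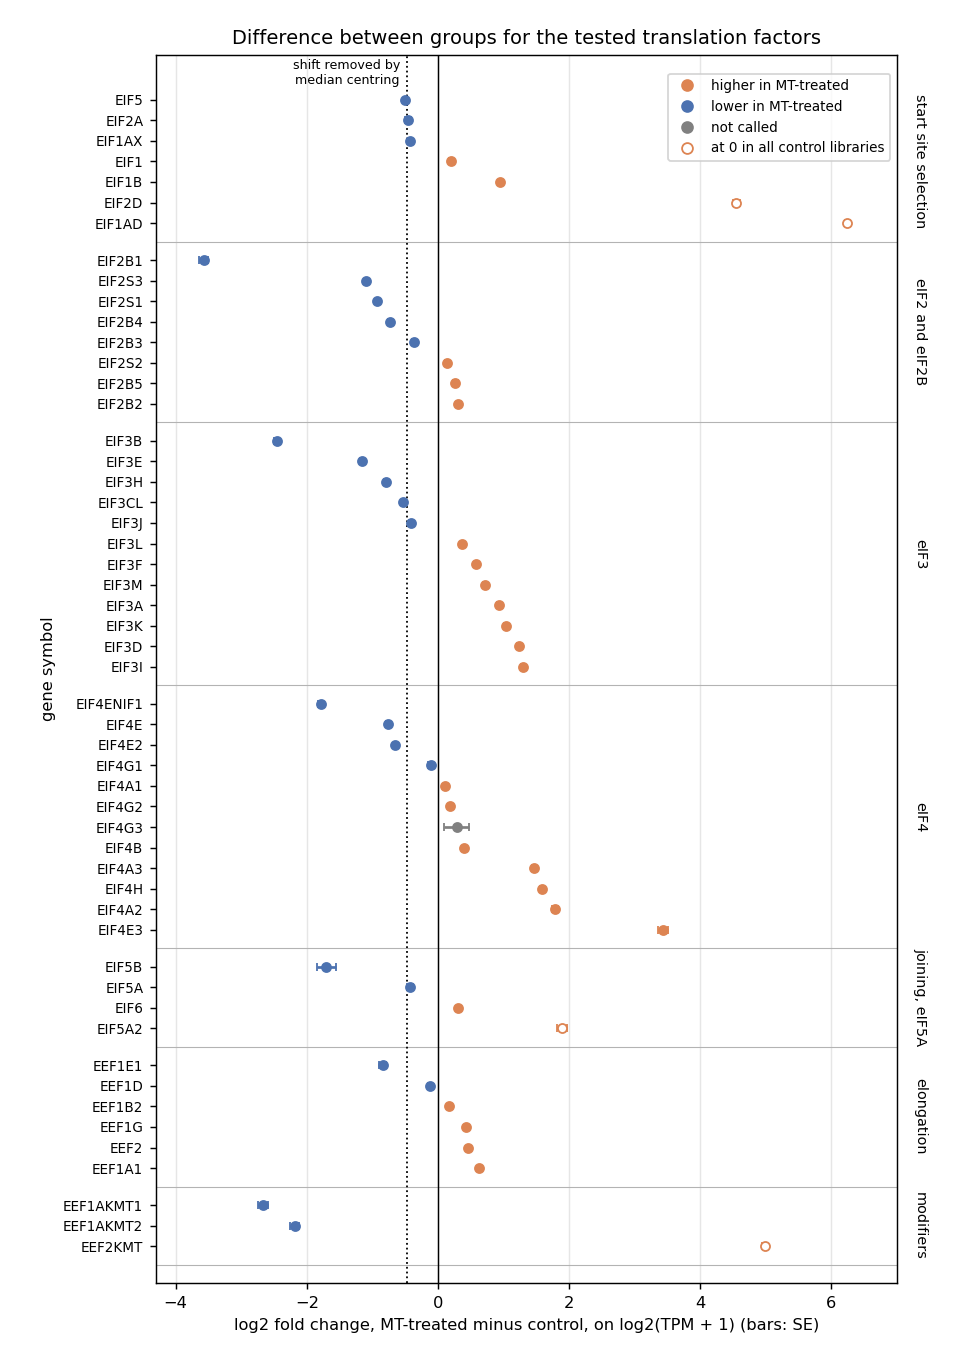
Log2 fold change on log2(TPM + 1), MT-treated minus control, with SE, for the 52 tested translation factors by role; open symbols are genes listed at 0 in all control libraries, the grey symbol is EIF4G3, and the dotted line is the shift of -0.48 that median centring removes. Most factors lie within 2-fold of no change, and EIF2B1 is the lowest at -3.58.

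Of the proteins that restrain eIF4E, which are regulators and not members of the group, EIF4EBP1 differed far more than eIF4E itself. EIF4EBP1, the main eIF4E-binding protein that is switched off by mTOR, had 5.58, 5.4 and 5.01 TPM in control and 109, 105 and 109.9 TPM with MT (20.2-fold higher in the mean, log2 fold change 4.11, SE 0.04, adjusted p = 1.51e-09 by limma). EIF4EBP2 and EIF4EBP3 were listed at 0 throughout control and had 23.3, 20.9 and 21.3 TPM and 18.8, 22.2 and 18.5 TPM with MT. Being at 0 throughout control and above 0 in every MT-treated library held for 33.8% of all tested genes. The summed TPM of the 3 binding proteins was 0.0252 ± 0.00173 times that of EIF4E in control and 1.21 ± 0.0387 times in MT-treated blastocysts (mean ± SD, n = 3 each), a ratio chosen after the values had been seen. MTOR, the kinase upstream, did not pass the test, with 71.2, 81.1 and 81.3 TPM in control and 76.2, 77.96 and 80.9 TPM with MT (log2 fold change 0.0111, SE 0.06, adjusted p = 0.859 by limma). Its groups overlapped, and it was higher by 0.49 and called after median centring. Of the 13 tested cap regulators 5 were higher and 6 lower, with 9 and 4 after median centring, against 61.6% and 34.1% of all tested genes, or 70.4% and 25.4% after centring. EIF4EBP2, EIF4EBP3 and RPS6KB2 were tested only through their MT-treated values and had to come out higher. The falls included PDCD4, an inhibitor of eIF4A, with 93.8, 94.2 and 98.7 TPM in control against 20.9, 22.6 and 22.3 TPM with MT, and LARP1, which binds mRNAs of the translation machinery, with 60.9, 62.4 and 64.0 TPM in control against 16.8, 15.96 and 15.5 TPM with MT. RPS6KB2, a ribosomal S6 kinase, was listed at 0 throughout control and had 13.9, 13.2 and 14.5 TPM with MT. PABPC1, the poly(A)-binding protein that meets eIF4G, rose from 279.7, 281 and 286 to 408, 408 and 429.8 TPM.

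**Figure D4:**
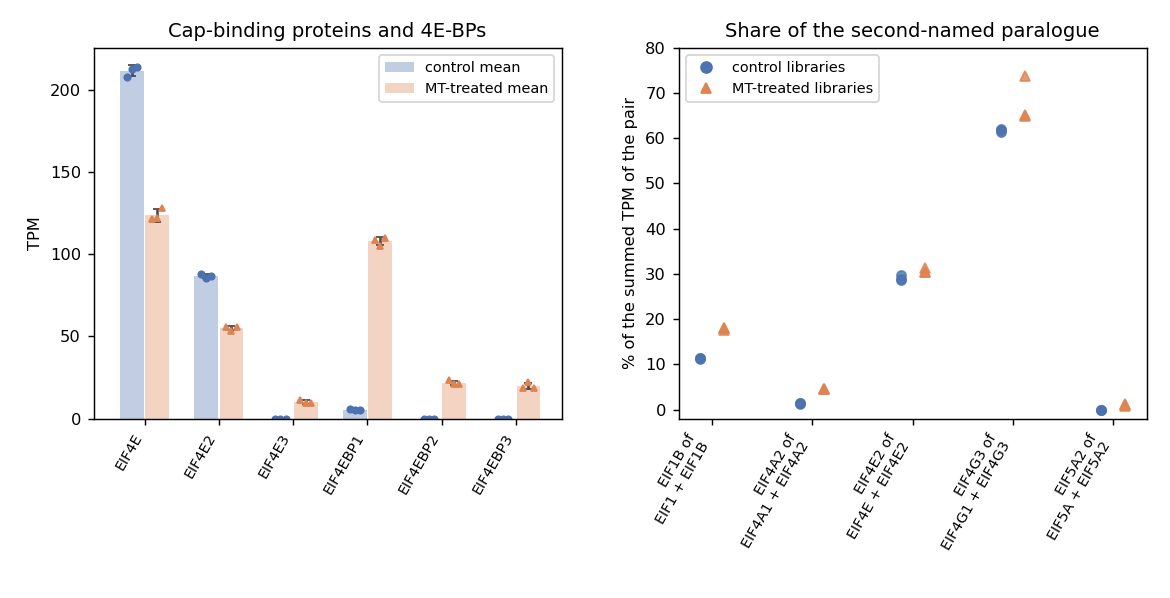
Left, TPM of the cap-binding genes and of the eIF4E-binding proteins, with bars for means, SD and single libraries. Right, share of the second-named gene in the summed TPM of paralogue pairs, in % per library. The binding proteins are low or at 0 in control, and the shares of EIF1B and EIF4A2 are higher in every MT-treated library.

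Among the kinases and phosphatase subunits that set the phosphorylation of eIF2 alpha, the kinases EIF2AK1 and EIF2AK4 were lower with MT. Of 6 tested genes around this step 2 were higher and 4 lower with MT, where 95.7% of all tested genes were called. EIF2AK2, PPP1R15A and PPP1R15B were under 1 TPM throughout 1 of the groups, so that their direction was fixed by the filter, and no p-value is given for them. EIF2AK1, the heme-regulated kinase, had 39.8, 37.5 and 39.96 TPM in control and 18.6, 20.5 and 21.7 TPM with MT. EIF2AK4, the kinase that responds to lack of amino acids, had 9.0, 9.18 and 9.48 TPM in control against 3.97, 3.74 and 3.74 TPM with MT. EIF2AK2, the kinase activated by double-stranded RNA, was listed at 0 throughout control, with 7.94, 9.66 and 9.7 TPM with MT, and EIF2AK3, the kinase of the endoplasmic reticulum, did not exceed 0.03 TPM in any library. The values of EIF2AK1 and EIF2AK4 did not overlap between the groups. The phosphatase subunits were near 0 TPM with MT. PPP1R15B, which is made constitutively, had 28.6, 28.0 and 28.9 TPM in control and 0.31, 0.58 and 0.27 TPM with MT. PPP1R15A, the stress-induced subunit, had 2.27, 2.15 and 2.35 TPM in control against 0, 0 and 0.02 TPM with MT. ATF4, the transcription factor whose mRNA is translated when eIF2 is phosphorylated, had 298, 303 and 293 TPM in control and 334, 338 and 329 TPM with MT. Levels of mRNA say nothing of phosphorylation, which was not measured.

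Of the factors that act at subunit joining, EIF5B showed the largest difference. EIF5B, the GTPase that joins the large ribosomal subunit, had 142, 151 and 164 TPM in control and 37.2, 48.9 and 53.7 TPM with MT (3.27-fold lower in the mean, log2 fold change -1.702, SE 0.14, adjusted p = 3.09e-05 by limma). Its libraries varied more than those of most factors, with a coefficient of variation of 7.49% in control and 18.2% in MT-treated blastocysts against medians of 1.54% and 1.79% over the factors with a mean of at least 1 TPM in both groups. The groups nevertheless did not overlap. EIF6, which keeps the large subunit from joining too early, had 356, 349.7 and 358 TPM in control against 439, 434 and 447 TPM with MT and was higher (log2 fold change 0.31, adjusted p = 3.08e-06 by limma).

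EIF5A, which helps the ribosome past difficult peptide bonds and carries the unusual amino acid hypusine, had 373, 354 and 368 TPM in control and 269.98, 255 and 289.98 TPM with MT. It was lower by limma (log2 fold change -0.43, adjusted p = 2.03e-04), but the difference was 0.0529 and not called after median centring. EIF5A2, its paralogue, was listed at 0 throughout control and had 3.16, 2.64 and 2.39 TPM with MT, or 1.0 ± 0.171% of the pair (mean ± SD, n = 3). Quantile normalization turned the sign of its difference, but that scaling also gives a value to genes listed at 0, so no direction is read from it. DHPS, the enzyme of the first step of hypusine synthesis, rose from 7.89, 7.55 and 7.33 TPM in control to 56.1, 53.8 and 52.3 TPM with MT (7.12-fold in the mean, adjusted p = 6.40e-09 by limma). DOHH, the enzyme of the next step, had 16.2, 17.9 and 16.6 TPM in control against 17.04, 15.9 and 20.8 TPM with MT and did not pass the test (adjusted p = 0.514 by limma), although it was higher by 0.55 and called after median centring, and its log2 fold change was -0.42 and not called after quantile normalization.

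No tested elongation factor reached a 2-fold difference on the deposited scale, although EEF1A1 did after median centring (1.11). Of 6 tested genes 4 were higher and 2 lower with MT, where 61.6% of all tested genes were higher. Both other scalings gave 5 higher and 1 lower, where after centring and quantile scaling 70.4% and 46.4% of all tested genes were higher. On the deposited scale the log2 fold changes of the elongation factors lay between -0.84 and 0.63. EEF1A1, which delivers aminoacyl-tRNA to the ribosome, had 563, 556 and 562 TPM in control and 871, 871 and 864 TPM with MT (log2 fold change 0.63, SE 0.01, adjusted p = 8.97e-09 by limma). EEF2, the translocase, had 134, 137 and 133 TPM in control against 189, 182 and 186 TPM with MT. Both were higher in all 3 MT-treated libraries. EEF1A1 was at 4.17 ± 0.0886 times the TPM of EEF2 in control and 4.68 ± 0.0881 times with MT (mean ± SD, n = 3 each).

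Of the exchange factors of eEF1A, EEF1G had 378, 370.4 and 379.6 TPM in control and 506, 498 and 508 TPM with MT, and EEF1B2 had 438, 436 and 421 TPM in control against 498, 488 and 477 TPM with MT. EEF1D, the delta subunit, had 185, 181 and 196 TPM in control against 174, 169.8 and 172 TPM with MT, a log2 fold change of -0.12, but was higher by 0.36 after median centring and by 0.11 after quantile normalization. The ratio of EEF1D to EEF1G within a library was 0.498 ± 0.0147 in control and 0.341 ± 0.00189 with MT (mean ± SD, n = 3 each). EEF1E1, a scaffold protein of the aminoacyl-tRNA synthetase complex, had 163, 176 and 169 TPM in control and 89.3, 91.6 and 101 TPM with MT and was the only elongation gene lower under each scaling. EEF1A2, the form found in muscle and nerve, was listed at 0 in 5 libraries and at 0.06 TPM in MT-treated replicate 1.

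Of the enzymes that modify elongation factors, EEF1AKMT1 and EEF1AKMT2 were lower by more than 2-fold. Both were above 1 TPM in every library. Among genes at 1 TPM or more throughout, 43.0% differed by 2-fold or more in either direction, and among all tested genes 70.6%. EEF1AKMT1, a lysine methyltransferase of eEF1A, had 83.9, 81.05 and 82.8 TPM in control and 10.9, 12.1 and 13.5 TPM with MT (6.78-fold lower in the mean, log2 fold change -2.67, SE 0.07, adjusted p = 1.01e-07 by limma). EEF1AKMT2, which methylates another lysine, had 54.1, 57.02 and 54.9 TPM in control against 11.7, 10.3 and 12.2 TPM with MT (4.86-fold lower, log2 fold change -2.19, SE 0.06, adjusted p = 1.21e-07 by limma). EEF2KMT, the methyltransferase of eEF2, was listed at 0 throughout control and had 29.7, 31.7 and 30.5 TPM with MT. The 2 enzymes of eEF1A were also lower after median centring and quantile scaling. EEF1AKMT3 and EEF2K, the kinase that inactivates eEF2, were listed at 0 in all 6 libraries.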

How the data were processed

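The deposited values are TPM of each gene in each library, with 2 decimals. According to the methods, reads were filtered with fastp and FastQC 0.11.9, aligned with STAR 2.7.9a to ARS-UCD1.3 (the submitters' processing notes name ARS-UCD1.2) and counted with featureCounts (Subread 1.6.3). How TPM was derived from the counts is not given in the sources used here. All 6 columns were matched to samples by their labels. Members and lists were chosen with earlier results of these data known. The role, partner and marker lists were written from general knowledge. Values for every library are given for the most abundant member of each role, up to 3 rises and 3 falls per role, members at 0 throughout a group and 6 paralogue pairs, and for partners for up to 2 rises and 2 falls per list, mTOR, the eIF2 kinases and the eIF4E-binding proteins. EIF2B4, EIF3A, EIF4A3, EIF4B, EIF4G2, EEF1B2, RPS6KB2, PABPC1, DHPS, DOHH, TUFM, GFM1, GSPT1 and MCTS1 fall outside this rule and were named after their values were seen. EIF3CL was placed with eIF3 by its name. EIF3C, EIF3G, EIF1AY, EIF2S3B, EIF5AL1, EEF1AKMT4, EEF1AKNMT and AMH were not analysed here. Each p-value sets the difference between the groups against the spread within them, in these 6 libraries only. The variance of each gene is moderated towards a trend over all tested genes. That spread was small, with a median coefficient of variation of 1.54% in control and 1.79% with MT. These medians are over factors with a mean of at least 1 TPM in both groups. Genes that reached 1 TPM in 3 or more libraries were fitted on log2(TPM + 1) with lmFit and eBayes with a trend (limma 3.58.1, R 4.3.3), without a block. On simulated data with 200 of 11953 genes changed by 1 on the log2 scale, the fit recovered 95% and made 9 false calls. The simulation had few changed genes and no offset between the groups. It therefore cannot tell how often calls are false in these data, where 95.7% of tested genes were called. TPM gives no depth, so no counting interval is given. RefSeq (ARS-UCD2.0) matched 56 of 56 symbols and was used for synonyms only. Figures were drawn with matplotlib 3.10.9 under Python 3.11.15. The alternatives are listed with their effects in the closing section.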

Additional observations from a re-analysis of the deposited data

How the results depend on the processing

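The alternatives changed the scaling (quantile normalization, median centring, an equal sum of TPM in every library), the pseudocount (0.1), the filter (none, or 5 TPM), the trend in eBayes (none), the rows (those with a symbol) and the block (replicate number), or left out a library. Restricting the test to genes that reached 1 TPM in every library was added after the data were seen. The count of lower factors moved by more than 1.5 times under median centring only, from 23 to 14. Testing only genes at 1 TPM or more throughout left 2183 genes higher of all tested and 8 partner genes higher, since genes under 1 TPM in any library are then not tested, and 23 factors higher and 23 lower. With a minimum of 5 TPM EIF5A2 was not tested, which left 27 factors higher. Median centring reversed EEF1D (0.36), EIF1AX (0.048), EIF2A (0.0187), EIF2B3 (0.11), EIF3J (0.0611), EIF4G1 (0.37) and EIF5A (0.0529) on the log2 scale, ended the calls of EIF3CL and EIF5, and brought EIF4G3 (0.76) past the threshold. Quantile normalization reversed EEF1D (0.11) and EIF5A2 (-0.16) and ended the call of EIF4E3. Rescaling to an equal sum ended the call of EIF4G1. With each library left out in turn there were 28 factors higher throughout and 22 to 23 lower. Treatments were run side by side, so the groups may share runs, but neither the labels nor the methods say that a replicate number marks a run. The numbers were therefore not taken as pairs. The correlation of deviations from the group means between same-numbered libraries lay between -0.0115 and 0.0588, and not every library correlated best with its own number. With the replicate block 28 factors were higher and 22 lower, EIF4G1 being no longer called, and under the block no other call on a translation factor changed. TPM without counts leaves the precision of low values unknown, which bears on EIF2A, EIF2B1, EIF4E3, EIF4ENIF1 and EIF5A2 among others.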

Other observations

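Mitochondria translate with their own factors, which are encoded in the nucleus and were not part of the group above. Of 10 listed genes 9 were tested, and 5 were called higher and 4 lower, against 61.6% and 34.1% of all tested genes. Of the 5, GFM1, GUF1, MRRF and TSFM were under 1 TPM throughout control and were tested only through their MT-treated values, so that they had to come out higher. TSFM, the exchange factor of the mitochondrial elongation factor Tu, had 0.04, 0.12 and 0.12 TPM in control and 85.9, 86.1 and 86.1 TPM with MT. MRRF, which recycles mitochondrial ribosomes, had 0, 0 and 0.04 TPM in control against 101, 101 and 103 TPM with MT. Their partner TUFM, the elongation factor Tu itself, had 122, 119 and 125 TPM in control against 110.5, 113 and 117 TPM with MT, and had a log2 fold change of -0.11 but was higher by 0.37 after median centring and 0.17 after quantile normalization. GFM1, the translocase, had 0.24, 0.28 and 0.18 TPM in control and 21.4, 23.4 and 22.3 TPM with MT, whereas GFM2, which acts with MRRF, had 70.3, 71.7 and 68.4 TPM in control against 2.4, 2.23 and 2.83 TPM with MT. The initiation factor MTIF2 had 48.1, 47.9 and 51.6 TPM in control against 6.56, 8.08 and 6.22 TPM with MT.

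Termination and recycling genes of the cytosol were also unequal. ETF1, which reads stop codons, had 203, 201 and 199.7 TPM in control and 79.97, 82.3 and 81.3 TPM with MT, whereas its partner GSPT1 had 91.7, 92.4 and 88.8 TPM in control against 119.7, 120.0 and 115 TPM with MT. ABCE1, which splits the ribosome after termination, and DENR, which removes the last tRNA, were listed at 0 throughout control and had 30.9, 29.9 and 30.0 TPM and 24.5, 25.3 and 25.2 TPM with MT. MCTS1, the partner of DENR, had 11.9, 10.7 and 11.3 TPM in control and 28.7, 26.5 and 26.4 TPM with MT. The helicases of scanning DHX29, with 20.3, 20.8 and 21.3 TPM in control against 9.58, 10.48 and 11.08 TPM with MT, and DDX3X, with 19.98, 19.9 and 18.7 TPM in control against 14.7, 14.9 and 14.8 TPM with MT, were lower, but DDX3X was higher by 0.11 after median centring and had a log2 fold change of -1.17 after quantile normalization. GSPT2, a paralogue of GSPT1, was listed at 0 throughout control and had 8.16, 10.1 and 9.64 TPM with MT. SECISBP2, needed for selenoprotein synthesis, rose from 2.5, 1.98 and 2.62 to 24.2, 25.8 and 24.9 TPM, while EEFSEC, the elongation factor for selenocysteine, had 19.1, 18.7 and 19.4 TPM in control against 16.8, 16.9 and 17.4 TPM with MT, a log2 fold change of -0.15, but was higher by 0.33 after median centring and had one of -0.65 after quantile normalization. Of all 40 partner genes tested 19 were higher and 18 lower, against 61.6% and 34.1% of all tested genes, but 11 of the 19 were under 1 TPM throughout control and had to come out higher. The split was 27 and 13 after median centring, and 8 and 16 among partner genes at 1 TPM or more in every library. After centring 70.4% of all tested genes were higher and 25.4% lower. Among all genes at 1 TPM or more in every library 36.5% were higher and 55.7% lower.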
